A study of Mus musculus with 29 samples.

Results

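The genes described here are 10 mouse genes of MHC class I antigen presentation. They are the heavy chains H2-D1 and H2-K1, the light chain B2m, the peptide transporter subunits Tap1 and Tap2, the loading factor Tapbp, the immunoproteasome subunits Psmb8 and Psmb9, the proteasome activator subunit Psme1 and the transactivator Nlrc5. They were picked by symbol and are 10 of the 55401 gene entries in the count tables. All 10 passed the filter on low counts in both model fits, among 17150 genes tested in the Gli1 libraries and 24383 in the Pdgfra libraries. RNA was measured in mesenchymal cells sorted by flow cytometry out of the common bile duct of mice, in 29 libraries of 9 groups. Per the labels each library came from 1 animal, and every animal carried the reporter Rosa26:lox-STOP-lox-tdTomato, which turns red once a Cre recombinase has acted. The Gli1:CreERT2 animals, in which Cre is driven by the Hedgehog target gene Gli1, gave 3 uninjured libraries and 3 libraries taken 4 days after bile duct ligation (BDL), an operation that blocks bile flow. The Pdgfra:CreERT2 animals, in which Cre is driven by a fibroblast gene, gave 5 wild type, 3 Ctnnb1FF, 2 Gli2FF, 2 Gli3FF, 4 Gli2FFGli3FF, 4 SmoFF and 3 SmoM2 libraries, with no injury named. FF is read by convention as loxP-flanked alleles, which Cre deletes, and SmoM2 as an always active form of Smo, the membrane transducer of Hedgehog signals. Gli2 and Gli3 are the transcription factors of that pathway, and Ctnnb1 encodes beta-catenin. The labels name no strain, age or sham operation.

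MHC class I molecules show fragments of a cell's own proteins to cytotoxic T cells and are read by natural killer cells. Proteasomes cut the proteins, and in the immunoproteasome Psmb8, Psmb9 and Psmb10 stand in for the constitutive subunits Psmb5, Psmb6 and Psmb7. The Tap1 and Tap2 transporter moves the peptides into the endoplasmic reticulum, where tapasin, the product of Tapbp, helps to load them onto a heavy chain paired with beta-2-microglobulin. Nearly all nucleated cells make these molecules, and interferon gamma raises most of the genes, with Irf1 and Nlrc5 among the factors that act on them.

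The promoters of 6 members that the results turn on are printed to show which of them hold letters of the motifs of interferon regulatory factors and of NF-kappaB, both known regulators of class I genes. They come from RefSeq on GRCm38.p6 (mm10), which matched 8 of the 10 members, and run from 250 bases before to 50 bases after the start site, 5′ to 3′ on the gene's own strand. Capitals mark matches on either strand to AANNGAAA, a core of interferon regulatory factor sites, or to the kappaB form GGGA and CC with 4 free bases between them. The letters of the interferon core were chosen after the promoters had been seen.
H2-D1: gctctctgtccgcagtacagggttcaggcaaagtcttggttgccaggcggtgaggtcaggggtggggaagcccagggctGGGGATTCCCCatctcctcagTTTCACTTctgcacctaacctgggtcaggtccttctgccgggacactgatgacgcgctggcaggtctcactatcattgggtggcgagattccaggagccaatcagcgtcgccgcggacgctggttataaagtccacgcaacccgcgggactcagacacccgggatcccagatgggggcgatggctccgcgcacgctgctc
H2-K1: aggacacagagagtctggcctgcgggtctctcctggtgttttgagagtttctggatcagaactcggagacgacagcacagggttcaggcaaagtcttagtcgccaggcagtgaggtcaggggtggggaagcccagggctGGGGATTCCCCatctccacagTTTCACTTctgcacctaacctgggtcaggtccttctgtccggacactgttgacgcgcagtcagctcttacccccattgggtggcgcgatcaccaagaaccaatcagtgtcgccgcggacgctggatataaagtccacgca
B2m: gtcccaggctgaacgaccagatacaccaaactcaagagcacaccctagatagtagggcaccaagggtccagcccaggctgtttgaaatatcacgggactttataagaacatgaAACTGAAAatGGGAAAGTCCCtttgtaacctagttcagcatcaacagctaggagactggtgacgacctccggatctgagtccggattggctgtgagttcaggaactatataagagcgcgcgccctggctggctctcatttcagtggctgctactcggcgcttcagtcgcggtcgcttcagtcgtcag
Psme1: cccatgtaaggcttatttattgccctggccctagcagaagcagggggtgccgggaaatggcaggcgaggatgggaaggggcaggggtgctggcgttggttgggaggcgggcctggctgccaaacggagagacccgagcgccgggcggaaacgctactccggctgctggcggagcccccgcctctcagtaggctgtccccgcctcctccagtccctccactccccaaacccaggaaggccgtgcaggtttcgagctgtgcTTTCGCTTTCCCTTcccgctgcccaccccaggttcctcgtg
Psmb9: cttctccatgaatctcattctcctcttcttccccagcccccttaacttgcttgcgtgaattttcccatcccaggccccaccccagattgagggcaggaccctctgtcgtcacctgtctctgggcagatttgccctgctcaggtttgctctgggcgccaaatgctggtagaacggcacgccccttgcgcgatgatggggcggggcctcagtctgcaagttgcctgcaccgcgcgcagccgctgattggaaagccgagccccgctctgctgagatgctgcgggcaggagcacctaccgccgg
Tapbp: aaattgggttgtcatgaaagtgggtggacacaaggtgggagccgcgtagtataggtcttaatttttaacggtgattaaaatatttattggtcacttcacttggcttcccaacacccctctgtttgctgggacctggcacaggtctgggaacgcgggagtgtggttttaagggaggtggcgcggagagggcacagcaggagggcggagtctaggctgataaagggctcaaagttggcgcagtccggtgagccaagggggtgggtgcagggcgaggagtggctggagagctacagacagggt
The H2-D1 window is chr17:35262844-35263143 on the plus strand, and the H2-K1 window is chr17:34000298-34000597 on the minus strand. The B2m window is chr2:122147437-122147736 and the Psme1 window is chr14:55578244-55578543, both on the plus strand. The Psmb9 window is chr17:34187281-34187580 on the minus strand, and the Tapbp window is chr17:33919228-33919527 on the plus strand. In H2-D1 the interferon core lies from −150 to −143 relative to the start site, in H2-K1 from −90 to −83 and in B2m from −137 to −130. In each of these 3 promoters overlapping kappaB matches on both strands lie close by, and they run together in capitals. Psme1 holds a pair of overlapping interferon core matches after its start, at 9 to 16 and 15 to 22. The interferon core was thus found in 4 of 8 members, against 23.9% of all 32851 promoters in the same table, and the kappaB letters in 3 of 8, against 20.7%. The letters TTCNNNGAA of gamma-activated sites were found in Psmb8 (8.3% of all promoters), and CCAAT in 6 of the 8 (37.4%). Psmb9 and Tapbp held neither of the capitalised motifs in these windows. The Tap1 and Psmb9 windows share 275 bases on chromosome 17, from 34187306 to 34187580, since the genes run in opposite directions from neighbouring starts. Their CCAAT matches are the same bases of this stretch, so that site is counted for both genes.

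All 10 members are protein-coding in GENCODE M21 (mm10), and 7 of them lie in the major histocompatibility complex on chromosome 17. There Tapbp spans 33915899 to 33929292, H2-K1 33996017 to 34000347, Psmb9 34181987 to 34187764, Tap1 34187553 to 34197225, Psmb8 34197721 to 34201454, Tap2 34203527 to 34216321 and H2-D1 35262730 to 35267499. B2m spans 122147686 to 122153083 on chromosome 2, Psme1 55578123 to 55581529 on chromosome 14 and Nlrc5 94434356 to 94527272 on chromosome 8. Of the 75-base stretches of the longest coding transcript, 6.9% in H2-D1, 3.85% in Psme1, 1.55% in H2-K1 and 0.992% in Tapbp also occur in another gene, so those reads could be split. Tap1 and Psmb9 overlap each other on opposite strands, and B2m, Psme1, Tap2, Psmb8, Tapbp and Nlrc5 overlap other annotated genes. Whether the counting used strand is not given in the sources used here.

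Total counts per library ran from 15021796 to 38301189. The ribosomal RNA locus CT010467.1 took 2.37 to 3.87% of them in the Gli1 libraries, 13.4 to 29.4% in wild type, 28.0 to 34.4% in Ctnnb1FF, 24.5 to 39.1% in Gli3FF and 38.4 to 50.03% in Gli2FFGli3FF. CPM is the usual scaling of read counts to library size, here with TMM factors, and group values are given as mean ± SD over libraries. The factors were 0.643 to 0.713 in Ctnnb1FF and 0.505 to 0.689 in Gli2FFGli3FF, against 0.904 to 1.28 in wild type. The description of wild type replicate 5 names the SmoFF allele, against its title and genotype label. Its Smo level was 29.2 CPM and lies among the 23.8 to 38.2 of wild type and above the 6.97 to 9.58 of SmoFF, and it was kept as wild type. Gli2 was at 7.15 to 12.9 in Gli2FF and 1.70 to 7.08 in Gli2FFGli3FF against 13.1 to 22.1 in wild type. Gli3 was at 12.9 to 16.2 in Gli3FF and 3.09 to 8.36 in Gli2FFGli3FF against 32.4 to 47.3, and Ctnnb1 at 42.8 to 53.1 in Ctnnb1FF against 54.1 to 67.6. Such levels also occurred in groups not named for the gene. In Ctnnb1FF, Gli2 was at 6.26 to 15.7 and Gli3 at 9.42 to 18.9, and Ctnnb1 was at 42.3 and 47.8 in Gli3FF. All 8 mesenchymal markers, Pdgfra and Col1a1 among them, had counts in every group. Changes are log2 differences with their standard error (SE) from edgeR's quasi-likelihood test, and a gene was called where its Benjamini-Hochberg adjusted p over all genes of the fit was under 0.05. Since 5 wild type libraries are the controls of all 6 Pdgfra genotypes, those comparisons are not independent of each other.

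B2m was the most abundant member per length in all 9 groups and Nlrc5 the least. In wild type fibroblasts the level of B2m was 1773 CPM per kilobase of transcript, that of H2-D1 314, of H2-K1 259, of Tapbp 109, of Psme1 70.3 and of Psmb8 34.3. Psmb9 followed at 14.9 CPM per kilobase, Tap2 at 10.02, Tap1 at 5.35 and Nlrc5 at 0.278. Uninjured Gli1 cells had the same order, with B2m at 1997 CPM per kilobase, H2-D1 at 477 and H2-K1 at 288. Cells of both labels therefore held RNA of each step of presentation, with the chains of the molecule itself far above the transporter and the transactivator.

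**Figure D1:**
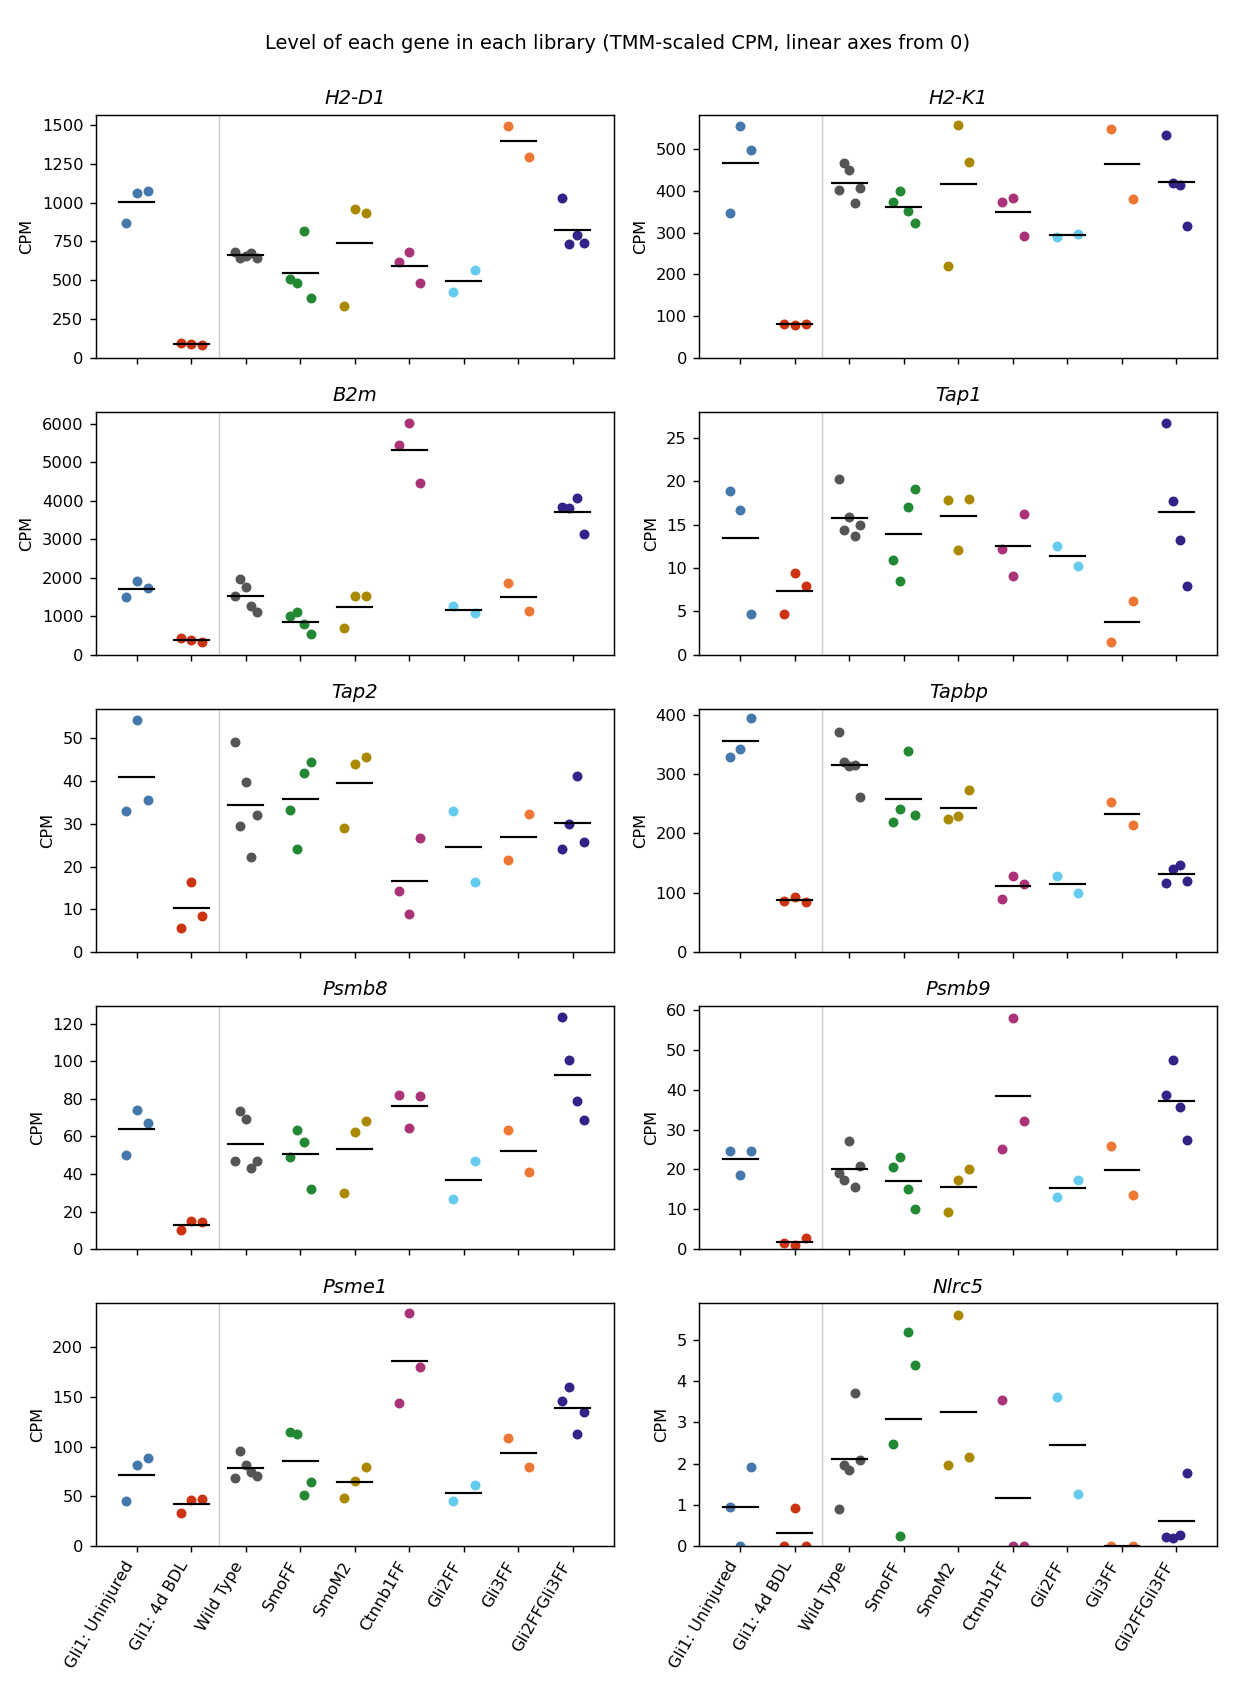
TMM-scaled CPM (y axes, linear from 0) of the 10 genes in each of the 29 libraries (points) of the 9 groups (x axis), with the group mean as a black bar and a grey line between the Gli1 groups and the Pdgfra groups. The BDL libraries lie below all others for H2-D1, H2-K1, B2m, Psmb8 and Psmb9, and B2m is highest in Ctnnb1FF, at 4448 to 6019 CPM.

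The level of H2-D1 was highest in Gli3FF at 1396 ± 142 CPM (n = 2), followed by uninjured Gli1 cells at 1003 ± 114 (n = 3), Gli2FFGli3FF at 825 ± 139 (n = 4), SmoM2 at 742 ± 352 (n = 3) and wild type at 660.4 ± 19.3 (n = 5). Below these, H2-D1 was at 594 ± 102 CPM in Ctnnb1FF (n = 3), 548 ± 187 in SmoFF (n = 4), 492 ± 100.2 in Gli2FF (n = 2) and 88.2 ± 8.47 after BDL (n = 3). Neighbours in that order overlapped, apart from Gli3FF at the top and BDL at the bottom. H2-K1 varied little among the Pdgfra groups, with means from 293 ± 6.23 CPM in Gli2FF to 464 ± 119 in Gli3FF, and only BDL stood apart from its neighbour.

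For B2m the order was different, with Ctnnb1FF at 5304 ± 795 CPM and Gli2FFGli3FF at 3709 ± 405 apart from each other and above all other groups. B2m then ran from 1717 ± 215 CPM in uninjured Gli1 cells over 1525 ± 341 in wild type, 1498 ± 503 in Gli3FF, 1253 ± 485 in SmoM2, 1173 ± 115 in Gli2FF and 855 ± 252 in SmoFF, neighbours overlapping, to 386 ± 46.9 after BDL. Tapbp fell into a higher and a lower range. Its means were 355 ± 34.2 CPM in uninjured Gli1 cells, 316 ± 38.8 in wild type, 258 ± 55.1 in SmoFF, 242 ± 27.2 in SmoM2 and 233 ± 27.2 in Gli3FF. In the lower range Tapbp was at 131 ± 14.96 CPM in Gli2FFGli3FF, 114 ± 20.0 in Gli2FF, 111 ± 19.6 in Ctnnb1FF and 88.0 ± 4.02 after BDL, with no library reaching the lowest of the higher range. Among the remaining members Psmb9 and Psme1 had their highest means in Ctnnb1FF and Gli2FFGli3FF, and Gli2FFGli3FF did not overlap with the group next in order. Neither pair stood clear of all other groups. For Psmb9 the lowest Ctnnb1FF library, at 25.3 CPM, lay below the highest wild type one, at 27.2. For Psme1 the lowest Gli2FFGli3FF library, at 113.0 CPM, lay below the highest SmoFF one, at 114.4. Tap2 and Nlrc5 had no break between neighbouring groups.

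After bile duct ligation most of the class I genes of Gli1-labelled cells were lower. Of the 10 members 7 fell and 0 rose, where 5.8% of the 17150 genes tested fell and 7.77% rose. The counts over all genes, 994 lower and 1332 higher, were 232 and 145 without BDL replicate 3, 263 and 157 without BDL replicate 2, 522 and 360 without BDL replicate 1, 610 and 872 without uninjured replicate 2, and 265 and 163 with the replicate number as a block. The median log2 change of the members was −2.10, against 0.07 over all genes tested. By edgeR 8 members were past an unadjusted p of 0.05, and DESeq2 and limma voom called 0 members higher.

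H2-D1, a classical heavy chain, stood at 871, 1063 and 1075 CPM in the uninjured libraries and at 96.5, 88.7 and 79.5 CPM in the BDL libraries. Every BDL library lay far below every uninjured one. H2-D1 fell by 3.52 on the log2 scale (SE 0.177, adjusted p = 0.000508), a level 11.5-fold lower. In these bulk samples, fewer cells that make a transcript and less of it per cell cannot be told apart. H2-K1, the other classical heavy chain, was at 346, 557 and 498 CPM before and 80.7, 79.0 and 80.5 CPM after ligation. The groups did not overlap, and H2-K1 fell by 2.56 (SE 0.214, adjusted p = 0.0017). B2m, the light chain without which most heavy chains do not reach the surface, was at 1494, 1923 and 1734 CPM before and 436, 381 and 343 CPM after. It too was lower in each BDL library, and fell by 2.17 (SE 0.179, adjusted p = 0.00166).

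Other class I heavy chains were lower as well. Of 20 listed 13 could be tested, of which 0 rose and 6 fell, with a median log2 change of −1.71. H2-T23, which encodes the natural killer cell ligand Qa-1, was at 76.2, 119.8 and 157 CPM in uninjured cells and 22.9, 21.01 and 22.5 CPM after BDL, and fell by 2.42 (SE 0.281, adjusted p = 0.00537). H2-M3, which presents formylated peptides, fell by 3.26 (adjusted p = 0.00889), H2-T22, a ligand of some gamma delta T cells, by 1.15 (adjusted p = 0.0159) and H2-Q6 fell by 5.81 (adjusted p = 0.0171). The number that fell ran from 2 with the replicate number as a block to 7 by DESeq2. Reads of these closely related genes could be split between copies.

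The transporter subunits did not both pass the test. Tap2 was at 32.9, 54.4 and 35.6 CPM in uninjured cells and 5.72, 16.4 and 8.52 CPM after BDL. The groups did not overlap, and Tap2 fell by 2.02 (SE 0.450, adjusted p = 0.0315). Its call was lost when uninjured replicate 1 (adjusted p = 0.0517) or 2 (0.0815), or BDL replicate 1 (0.0812) or 3 (0.129), was left out. Tap1 was at 18.8, 16.7 and 4.71 CPM before and 4.68, 9.39 and 7.89 CPM after, so that 1 uninjured library lay among the BDL libraries, and its log2 change of −0.90 (SE 0.603, adjusted p = 0.427) was not called. Tapbp was at 329, 343 and 394 CPM before and 86.7, 92.6 and 84.9 CPM after. The separation was wide, and Tapbp fell by 2.03 (SE 0.147, adjusted p = 0.00104). Among 8 further genes of peptide loading and trimming 1 rose and 2 fell. The chaperone Calr rose by 0.87 (adjusted p = 0.0284), while the trimming enzyme Erap1 fell by 1.53 (adjusted p = 0.0214) and the tapasin relative Tapbpl fell by 2.05 (adjusted p = 0.0297).

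Within the proteasome the 3 immune subunits fell, and those constitutive subunits that passed the test rose. Psmb8 was at 50.1, 73.9 and 67.0 CPM in uninjured cells and 10.03, 14.8 and 14.4 CPM after BDL, and fell by 2.30 (SE 0.255, adjusted p = 0.00453). Psmb9 was at 24.5, 18.5 and 24.7 CPM before and 1.52, 1.06 and 2.77 CPM after, and fell by 3.67 (SE 0.477, adjusted p = 0.00756), 12.8-fold and the largest fold among the members called. Neither gene overlapped between groups. Psmb10, the remaining immune subunit, was at 64.9, 78.2 and 59.1 CPM before and 16.0, 36.4 and 29.5 CPM after, and fell by 1.32 (adjusted p = 0.0415). It was the 1 gene called of 6 further proteasome partners. Psme1, a subunit of the PA28 activator, was at 45.5, 81.7 and 88.4 CPM before and 33.5, 46.9 and 47.2 CPM after. These ranges overlapped and its change of −0.77 (SE 0.290, adjusted p = 0.147) was not called, nor was that of its partner Psme2, at −0.19 (adjusted p = 0.691).

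Of 14 constitutive proteasome subunits 4 rose and 0 fell, with a median log2 change of 0.48. Psmb5, whose place Psmb8 takes, was at 32.9, 46.1 and 59.9 CPM in uninjured cells and 113, 107 and 104 CPM after BDL, and rose by 1.21 (adjusted p = 0.0232). Psmb6 changed by 0.61 (adjusted p = 0.0563) and Psmb7 by 0.18 (adjusted p = 0.722), neither called. The number that rose ran from 0 with the replicate number as a block to 7 with a length and GC correction. In reads, Psmb8 was counted 1.42 ± 0.261 times as often as Psmb5 in uninjured libraries and 0.122 ± 0.0286 times after BDL (SD, n = 3 each). The ratio of Psmb9 to Psmb6 went from 0.146 ± 0.0325 to 0.00718 ± 0.00259 and that of Psmb10 to Psmb7 from 1.80 ± 0.532 to 0.593 ± 0.154. None of the 3 ratios overlapped between groups. They compare counts without regard to length and describe the same libraries, with no test of their own.

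Nlrc5 was near the limit of counting, at 25, 0 and 48 counts in the uninjured and 0, 29 and 0 counts in the BDL libraries, and its change of −1.59 (SE 2.27, adjusted p = 0.745) was not called. Among 23 further regulators 1 rose and 3 fell. The interferon gamma receptor chain Ifngr1 was at 256, 316 and 323 CPM before and 82.3, 63.1 and 58.6 CPM after, and fell by 2.15 (SE 0.204, adjusted p = 0.00278). The kinase Jak1 fell by 1.04 (adjusted p = 0.00927) and Irf9 by 1.73 (adjusted p = 0.0188), while the receptor chain Ifngr2 rose by 0.78 (adjusted p = 0.0447). Irf1 changed by −0.70 (adjusted p = 0.137) and was not called. Of 86 other genes between Tapbp and H2-D1 on chromosome 17, 57 could be tested, 2 rose and 9 fell, with a median change of 0.05.

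**Figure D2:**
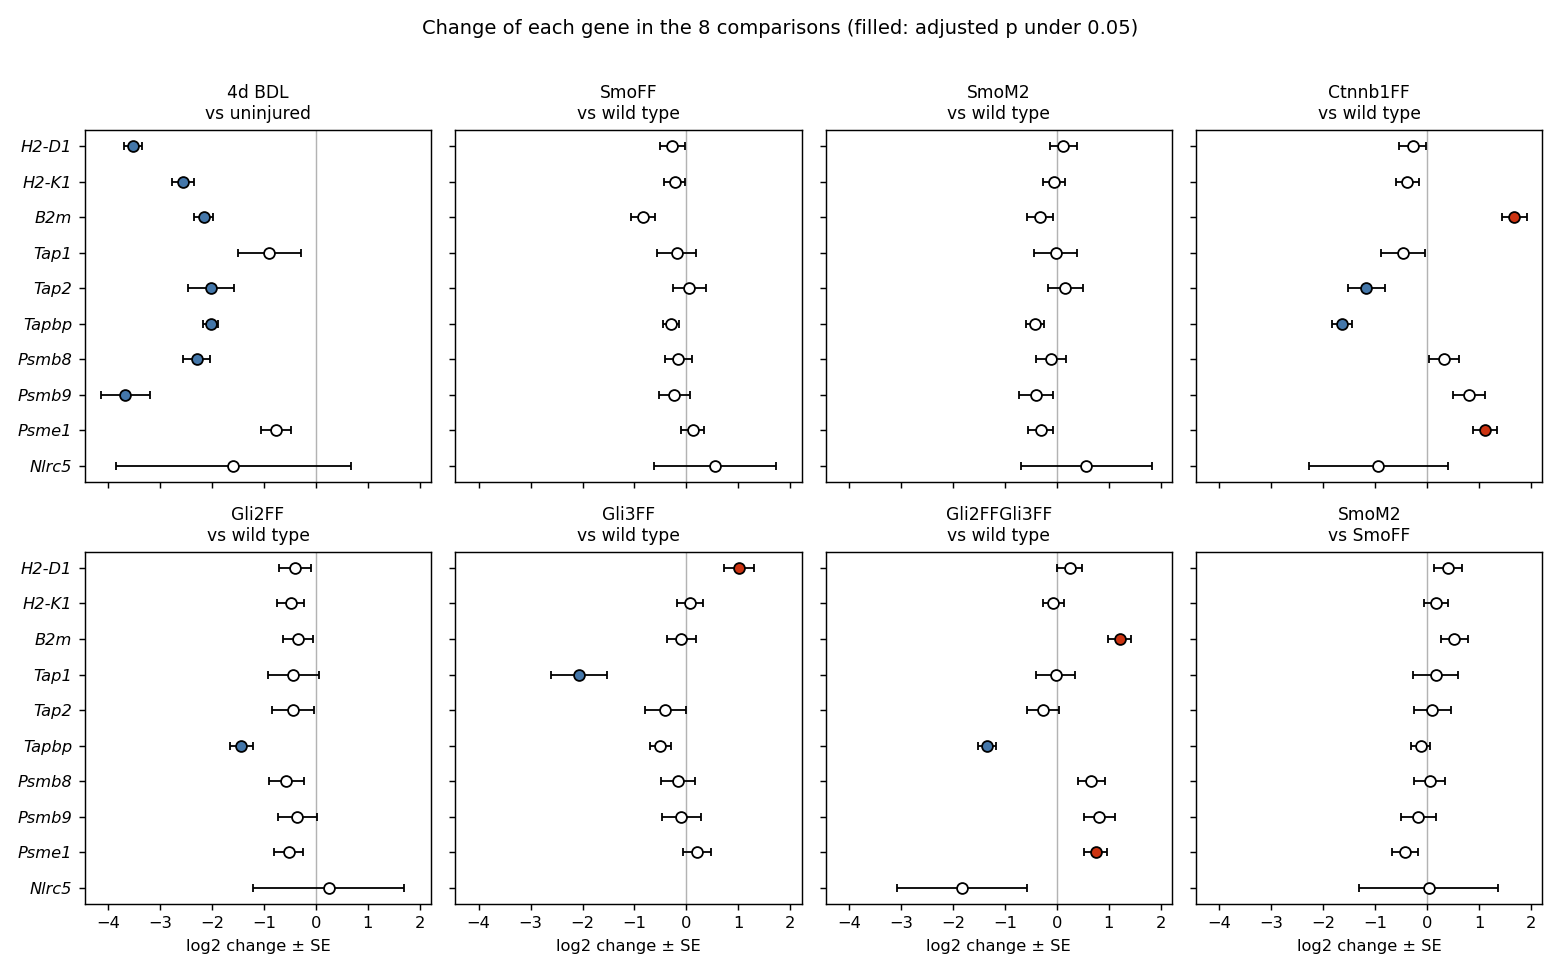
Log2 change (x axes) of the 10 genes (y axis) in the 8 comparisons, as points with SE bars. Filled points were called (red higher, blue lower) and open points were not, and Nlrc5 is left out for Gli3FF, where both libraries are at 0. The BDL panel holds 7 filled blue points, and Tapbp is the member called in 3 of the genotype panels and lower in each.

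Markers of other cells moved along with the ligation as well. Summed over 8 mesothelial markers the libraries held 578, 227 and 830 CPM before and 57.5, 89.4 and 60.6 CPM after, and 5 of the 8 fell. Summed smooth muscle and pericyte markers went from 48.8 to 109 CPM before to 3249 to 3830 CPM after, and 4 of 8 rose, while 2 of the 2 Schwann cell markers tested fell. The sum of 12 immune markers was 9.67 to 19.5 CPM before and 28.3 to 69.3 CPM after, with none of the 9 tested called, Cd3e and Adgre1 at 0 in the uninjured and Itgam at 0 in the BDL libraries. Of 7 endothelial markers 1 fell, and of 5 cholangiocyte and 4 pancreatic acinar markers none was called. Mesenchymal markers summed to 23676 to 28491 CPM before and 43748 to 49378 CPM after, 4 of 8 higher and 2 lower. Whether such shifts in the sorted cells have a part in the fall of the class I genes was not tested.

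**Figure D3:**
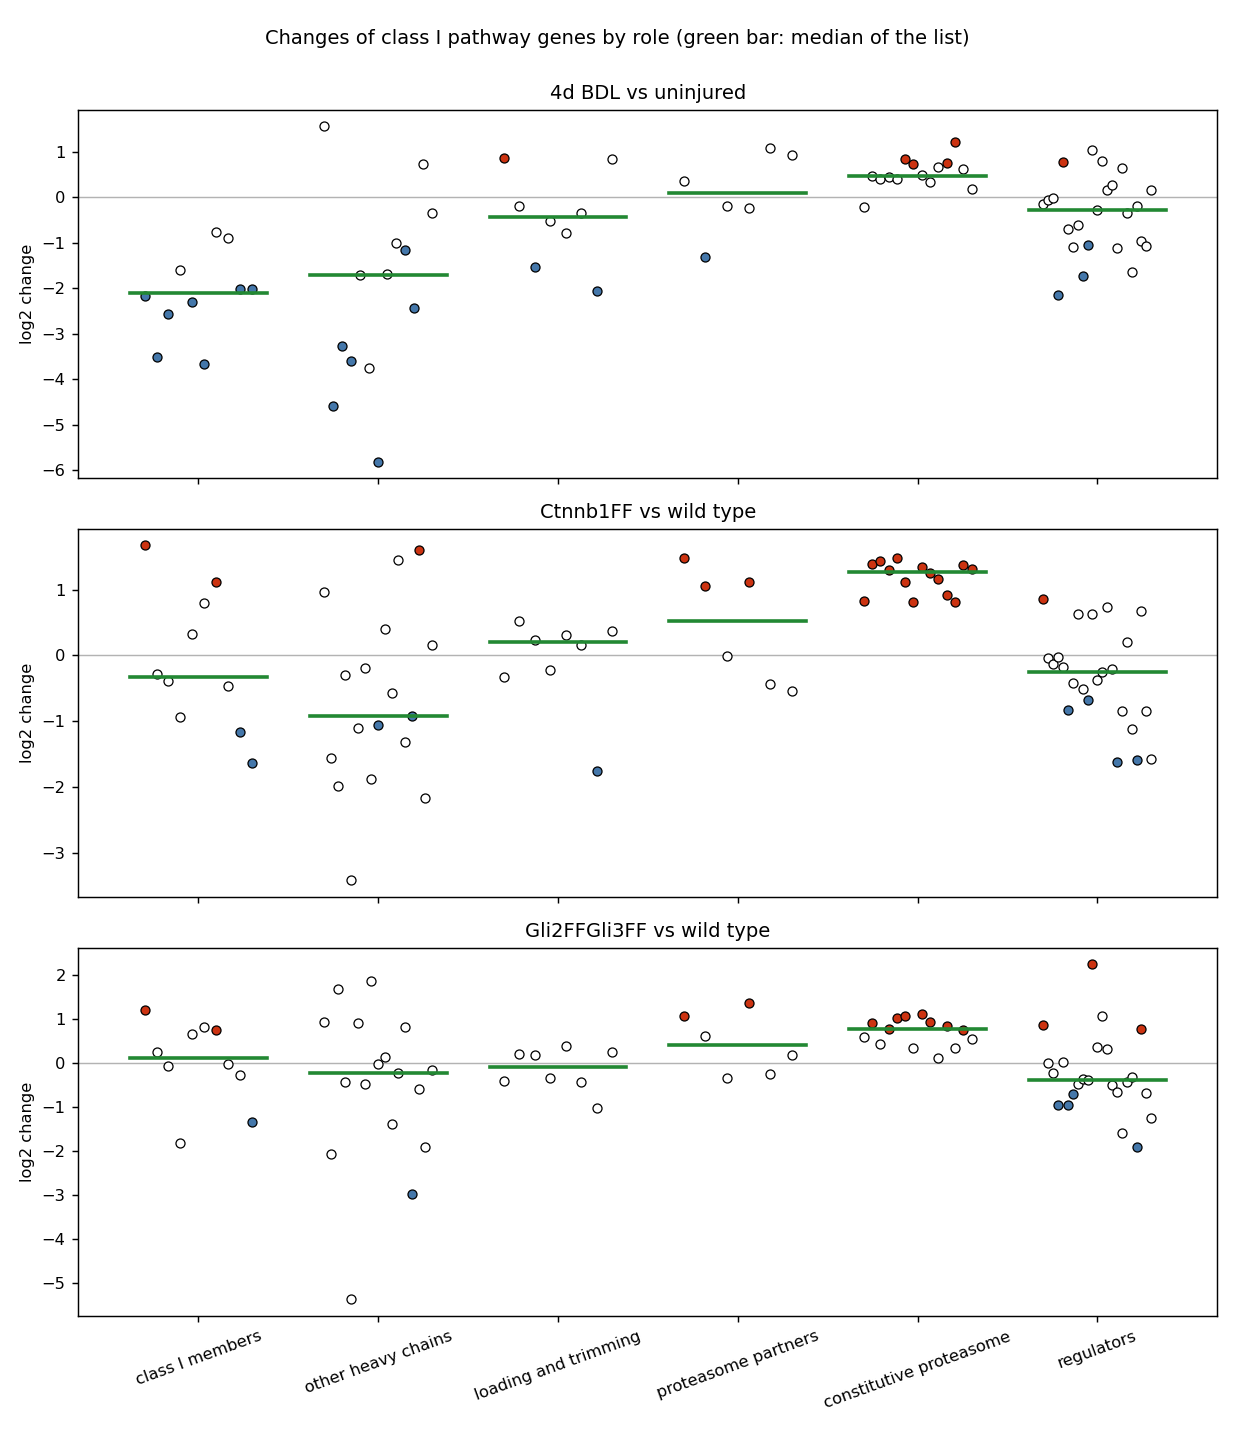
Log2 change (y axes) of every tested gene (points) of 6 lists by role (x axis) in BDL, Ctnnb1FF and Gli2FFGli3FF, with filled points called (red higher, blue lower) and a green bar at the list median. After BDL the median lies at −1.71 for the other heavy chains and at 0.48 for the constitutive proteasome, and in Ctnnb1FF all 14 constitutive subunits are called higher.

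In Ctnnb1FF fibroblasts the members parted, B2m and Psme1 being higher and Tapbp and Tap2 lower than in wild type. These are 2 members higher and 2 lower, where 8.04% of the 24383 genes tested rose and 11.9% fell. The members' median change was −0.33 against −0.61 over all genes, and −0.09 without Ctnnb1FF replicate 3. The median over all genes depended on which genes were kept. With only the 2 groups compared, over 17891 genes, it was −0.25, and that of the members was −0.25 as well. Scaled to total counts without the ribosomal RNA locus, 1314 genes were higher and 4706 lower in place of 1961 and 2891, with a median of −0.96. The level of B2m was 1523, 1957, 1751, 1272 and 1121 CPM in the wild type libraries and 5447, 6019 and 4448 CPM in Ctnnb1FF. Every Ctnnb1FF library lay above every wild type one, and B2m rose by 1.67 (SE 0.243, adjusted p = 3.73e-05). In the fit of all Pdgfra groups this is 2.29 above the median gene. With a per-library correction for transcript length and GC content, chosen after the data had been seen, the change of B2m was 0.06 (adjusted p = 0.822), and in the other 9 alternatives its adjusted p ran from 7.67e-15 to 0.00208.

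The heavy chains did not follow B2m. H2-D1 was at 685, 642, 654, 677 and 645 CPM in wild type and 616, 683 and 484 CPM in Ctnnb1FF, and H2-K1 at 401, 467, 452, 370.4 and 407 against 375, 383 and 292. Both overlapped, and the changes of H2-D1, −0.28 (SE 0.263, adjusted p = 0.442), and H2-K1, −0.39 (SE 0.221, adjusted p = 0.199), were not called. Among 17 other heavy chains tested 1 rose and 2 fell. H2-T23 was at 56.1, 40.4, 39.9, 47.5 and 42.2 CPM in wild type and 138, 151 and 159.6 CPM in Ctnnb1FF, with no overlap, and rose by 1.60 (SE 0.291, adjusted p = 0.000434). H2-Q4 fell by 1.06 (adjusted p = 0.0243) and H2-T22 by 0.92 (adjusted p = 0.0355).

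Of the genes of transport and loading, Tapbp, Tap2 and Tapbpl passed the test and were lower. Tapbp was at 371, 319.7, 314, 315 and 261 CPM in wild type and 89.9, 129 and 115 CPM in Ctnnb1FF. The groups lay far apart, and Tapbp fell by 1.64 (SE 0.189, adjusted p = 3.13e-06), called in all 10 alternatives with an adjusted p of 3.64e-19 to 0.00874. Tap2 was at 49.1, 29.4, 39.7, 22.2 and 32.1 CPM in wild type and 14.3, 8.92 and 26.6 CPM in Ctnnb1FF, where the third library reached into the wild type range. It fell by 1.17 (SE 0.357, adjusted p = 0.0242). Its call was lost without wild type replicate 1 (adjusted p = 0.057), without Ctnnb1FF replicate 1 (0.113) or without Ctnnb1FF replicate 2, where the change was −0.76 (0.182). Length and GC correction left a change of −0.30 (adjusted p = 0.502). Tap1 changed by −0.46 (SE 0.422, adjusted p = 0.428) with overlapping libraries, 13.6 to 20.2 CPM in wild type and 9.10, 12.2 and 16.2 in Ctnnb1FF. Of the 8 further loading and trimming genes 0 rose and 1 fell, Tapbpl by 1.76 (adjusted p = 0.00812), and the median of the 8 was 0.20.

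Psme1 was at 68.9, 95.4, 81.8, 74.2 and 70.3 CPM in wild type and 144, 234 and 180.1 CPM in Ctnnb1FF. It did not overlap and rose by 1.12 (SE 0.234, adjusted p = 0.00159), called in all 10 alternatives with an adjusted p of 3.46e-05 to 0.0229. Psmb9 was at 19.2, 17.4, 27.2, 15.6 and 20.96 CPM in wild type and 25.3, 58.1 and 32.1 CPM in Ctnnb1FF, a change of 0.80 (SE 0.316, adjusted p = 0.0726) that was not called. Psmb8 changed by 0.33 (SE 0.283, adjusted p = 0.398). With length and GC correction Psmb8 (0.76, adjusted p = 0.0439) and Psmb9 (0.85, adjusted p = 0.0347) were called, so that 3 members were higher and 1 lower. All 14 constitutive subunits rose, with a median of 1.27, among them Psma3 by 1.44 (adjusted p = 1.21e-05) and Psmb1 by 1.35 (adjusted p = 0.000107). Under length and GC correction 6 of the 14 were higher, with a median of 0.44, and with only wild type 1 to 3 as controls 9 were. Of 6 proteasome partners 3 rose, the assembly factor Pomp by 1.48 (adjusted p = 0.000141), Psmb10 by 1.06 (adjusted p = 0.0215) and Psme2b by 1.12 (adjusted p = 0.0214).

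Nlrc5 had counts in 1 of the 3 Ctnnb1FF libraries, at 3.54 CPM, against 0.898 to 3.70 CPM in wild type, and its change of −0.94 (SE 1.33, adjusted p = 0.627) was not called. Of 23 regulators 1 rose and 4 fell. The NF-kappaB subunit Rela fell by 1.62 (SE 0.307, adjusted p = 0.000669) and Irf1 by 0.83 (SE 0.215, adjusted p = 0.00892). Jak1 fell by 0.67 (adjusted p = 0.0236), while Creb1 rose by 0.86 (adjusted p = 0.00681). Without the ribosomal locus in the scaling, 0 regulators were higher and 10 lower. Immune markers summed to 13.4 to 43.0 CPM, with Cd3e, Itgam and Cd68 at 0, against 7.09 to 81.8 CPM in wild type, and 1 of 12 fell. Of 8 mesothelial markers 3 fell, and of 8 smooth muscle and pericyte markers 3 rose and 1 fell. Their part in the changes of the members was not tested.

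The changes in Ctnnb1FF went with transcript length over all coding genes. The median log2 change was 0.93 for transcripts of up to 1000 bases, 0.19 from 1001 to 1500, −0.37 from 1501 to 2000, −0.50 from 2001 to 3000 and −0.49 from 3001 to 4000. B2m has a transcript of 860 bases, Psme1 of 1112 and Psmb9 of 1352, whereas that of Tapbp has 2898 and that of Tap2 3442. Set against the median of the 500 genes nearest in length, the change of B2m was 0.80, that of Psme1 0.66 and of Psmb9 0.80, while Tapbp was at −1.19 and Tap2 at −0.65. B2m also has the lowest GC content among the members, at 41.2%, with the other 9 between 52.6 and 57.3%.

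**Figure D4:**
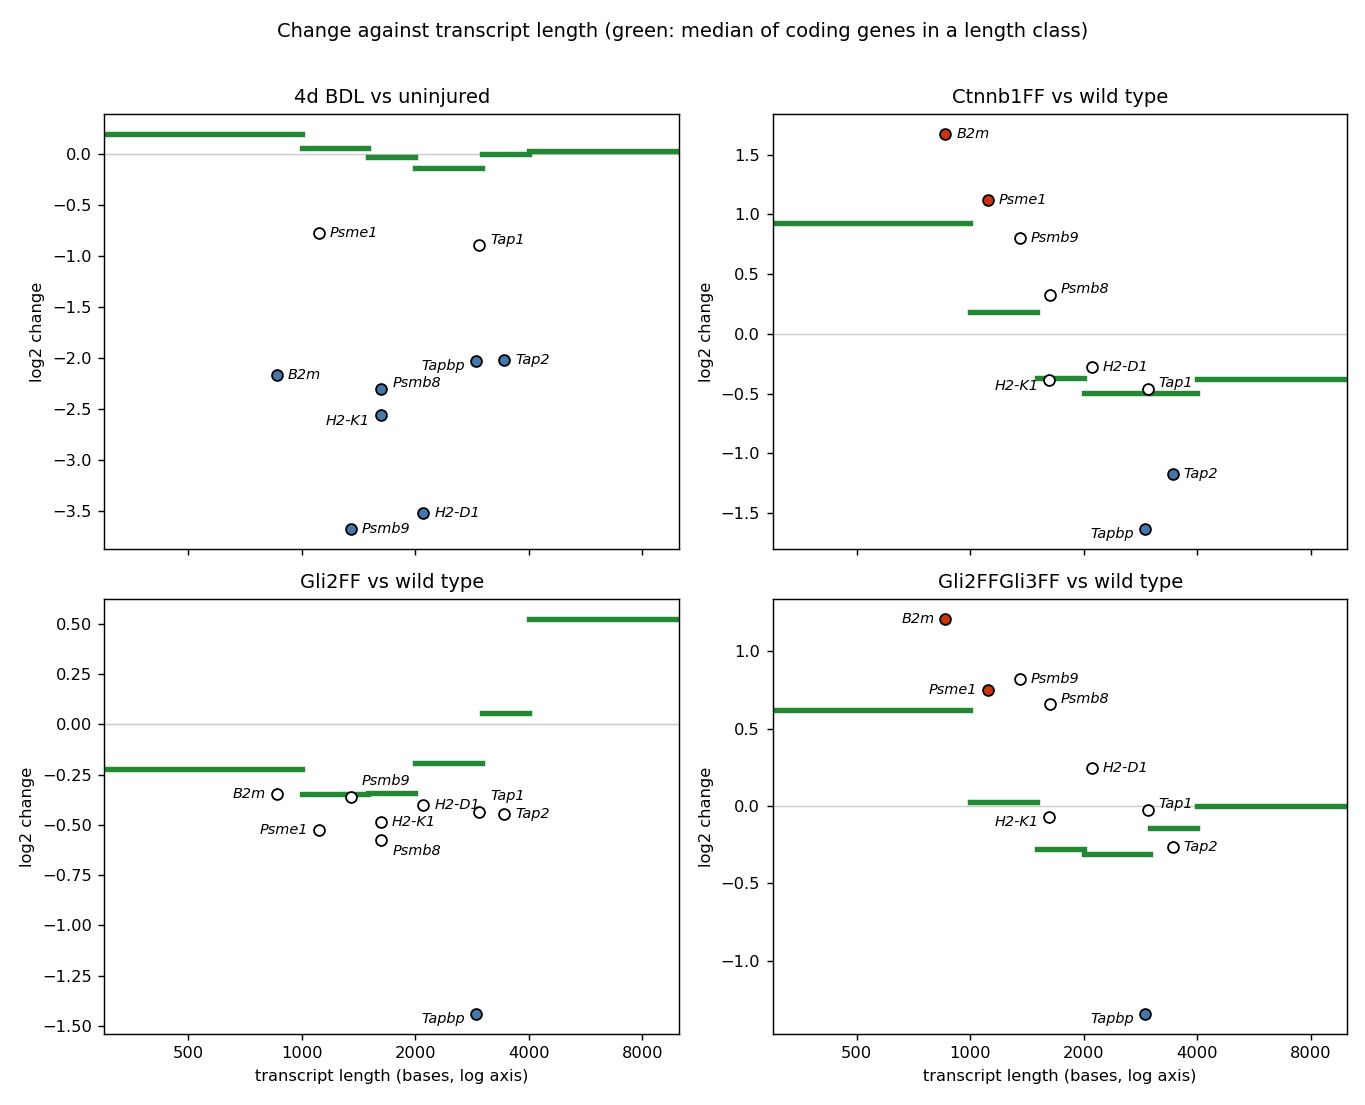
Log2 change (y axes) of the members (labelled points) against the length of the longest coding transcript in bases (x axes, log scale) in BDL, Ctnnb1FF, Gli2FF and Gli2FFGli3FF, with the median of all coding genes in each length class as a green line. In Ctnnb1FF the line falls from 0.93 in the shortest class to −0.50 at 2001 to 3000 bases, with B2m and Psme1 above it and Tapbp below it.

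With both Gli2 and Gli3 deleted, B2m and Psme1 rose and Tapbp fell, 2 members higher and 1 lower, where 7.6% of all genes rose and 9.56% fell. The members' median change was 0.11 against −0.35 over all genes. With only the 2 groups compared, over 16635 genes, it was 0.13 against −0.12. Scaled without the ribosomal locus, 1186 genes were higher and 3563 lower in place of 1853 and 2330, with a median of −0.63. B2m was at 3823, 3799.8, 4081 and 3133 CPM in Gli2FFGli3FF, all above the 1957 CPM of the highest wild type library. It rose by 1.21 (SE 0.227, adjusted p = 0.000716), which is 1.56 above the median gene in the fit of all Pdgfra groups. With length and GC correction the change of B2m was 0.08 (adjusted p = 0.754), and its adjusted p in the other 9 alternatives was 6.49e-09 to 0.0204. Psme1 was at 146, 160.2, 113 and 135 CPM, above the 95.4 CPM of the highest wild type library, and rose by 0.75 (SE 0.219, adjusted p = 0.021). It was called in 6 of 10 alternatives (adjusted p 0.00226 to 0.129) and was lost without wild type replicate 1 (0.0511), 4 (0.0605) or 5 (0.0659).

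Tapbp was at 116, 139.8, 147 and 120.1 CPM in Gli2FFGli3FF, far below its 261 to 371 CPM in wild type. It fell by 1.35 (SE 0.168, adjusted p = 8.89e-06), called in all 10 alternatives with an adjusted p of 5.3e-16 to 0.00453. H2-D1, at 1031, 736, 792 and 742 CPM, did not overlap with its 642 to 685 CPM in wild type, but its change of 0.25 (SE 0.239, adjusted p = 0.484) was not called and was −0.03 when scaled without the ribosomal locus. H2-K1 (−0.07), Tap1 (−0.02) and Tap2 (−0.26) were not called either, and their libraries overlapped with wild type. Psmb9 was at 38.6, 47.5, 35.7 and 27.4 CPM, above the 27.2 CPM of the highest wild type library, with a change of 0.82 (SE 0.294, adjusted p = 0.058) that was not called. Psmb8, at 124, 100.6, 78.7 and 68.6 CPM, overlapped with wild type in the lowest library, and its change was 0.66 (SE 0.261, adjusted p = 0.0807). With length and GC correction Psmb8 (1.16, adjusted p = 0.00191), Psmb9 (1.09, adjusted p = 0.00504) and H2-D1 (0.89, adjusted p = 0.00819) were called higher, as was Psme1 (0.75, adjusted p = 0.00226). Nlrc5 had 3, 5, 4 and 29 counts, and its change of −1.82 (SE 1.25, adjusted p = 0.305) was not called.

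Of the other genes of the route, 8 of 14 constitutive proteasome subunits rose and 0 fell, with a median of 0.77, among them Psmb1 by 1.12 (adjusted p = 0.000499). Only 3 of the 14 were higher with length and GC correction and 2 with wild type 1 to 3 as controls. Of 6 partners 2 rose, Pomp by 1.06 (adjusted p = 0.00232) and Psme2b by 1.36 (adjusted p = 0.00418), and of 8 loading and trimming genes none was called. Among 17 other heavy chains 0 rose and 1 fell, H2-T22. Among 23 regulators 3 rose and 4 fell. Scaled without the ribosomal locus, 1 regulator was higher and 9 lower, 3 loading genes were lower and 4 other heavy chains were lower. Jak2, the kinase that acts behind the interferon gamma receptor, rose by 2.25 (SE 0.256, adjusted p = 2.9e-06). Irf1 fell by 0.95 (adjusted p = 0.00169), and Ifngr1 fell by 0.97 (adjusted p = 0.00354). Immune markers summed to 464, 20.2, 22.8 and 157 CPM in the 4 libraries, with none of 12 called. Smooth muscle and pericyte markers summed to 193 to 451 CPM against 57.1 to 87.0 in wild type, and 3 of 8 rose (Myh11, Tagln and Acta2). Endothelial markers summed to 70.7 to 118 CPM against 164 to 234, and 2 of 8 fell (Tek and Eng), as did 2 of 8 mesenchymal markers (Col1a1 and Thy1). The endothelial markers did not move as 1 set. Their median log2 change was 0.81 against −0.35 over all genes, and Cdh5 and Emcn, at 0 in wild type, had counts in Gli2FFGli3FF. The part of these markers' cells in the changes of the members was not tested. By length, the median change over coding genes went from 0.62 at up to 1000 bases to −0.31 at 2001 to 3000. Against the 500 genes nearest in length B2m was at 0.72, Psme1 at 0.62, Psmb8 and Psmb9 at 0.92 and Tapbp at −1.16. The groups in which B2m and Psme1 were called higher, Ctnnb1FF and Gli2FFGli3FF, also had much of their counts on the ribosomal locus, 28.0 to 34.4% and 38.4 to 50.03%. Over the 23 Pdgfra libraries, which share genotypes, Pearson's r between log2 CPM and that share was 0.70 for B2m, 0.70 for Psme1, 0.66 for Psmb8 and 0.64 for Psmb9, given as a description. It was −0.42 for Tapbp and −0.50 for Nlrc5, and lay between −0.13 and 0.36 for the other members. Gli3FF, at 24.5 to 39.1%, had B2m within the wild type range, at 1853 and 1142 CPM. The part of the ribosomal share in these levels was not tested.

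With Gli2 alone deleted, 0 of 10 members rose and 1 fell, where 2.58% of all genes rose and 3.26% fell. DESeq2 and limma voom also called 0 members higher, and edgeR had 1 member past an unadjusted p of 0.05. The median of the members was −0.44 against 0.12 over all genes. Without Gli2FF replicate 1, 83 genes were higher and 96 lower, and without replicate 2, 249 and 339. Other scalings turned the balance of all calls, with 873 higher and 592 lower without the ribosomal locus and 817 and 654 with RLE factors, against 628 and 795. Tapbp was at 128 and 99.7 CPM, below every wild type library. It fell by 1.44 (SE 0.220, adjusted p = 0.000379), called in all 10 alternatives with an adjusted p of 2.9e-10 to 0.0157. H2-D1 at 421 and 562 CPM, H2-K1 at 289 and 298, Tap1 at 12.6 and 10.3 and Psme1 at 45.6 and 61.0 also lay below all 5 wild type libraries. With Tapbp these are 5 of 10 members, where 14.1% of all genes tested lay below in this way. None of the 4 was called, with changes of −0.40 (adjusted p = 0.522), −0.49 (0.302), −0.44 (0.689) and −0.52 (0.312). B2m, at 1254 and 1092 CPM, Psmb8 at 26.6 and 47.1, Psmb9 at 13.2 and 17.4, Tap2 at 33.0 and 16.3 and Nlrc5 at 3.62 and 1.27 overlapped with wild type.

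Of the other lists in Gli2FF, 0 of 17 heavy chains rose and 1 fell, H2-T22, and 0 of 14 constitutive subunits were called. Among loading genes Lnpep rose by 0.81 (adjusted p = 0.00957) and the tapasin partner Pdia3 fell by 1.05 (adjusted p = 0.0235), and among partners Psme4 rose by 1.31 (adjusted p = 0.00879). Among regulators 2 rose and 3 fell. Jak2 rose by 1.70 (SE 0.295, adjusted p = 0.00137) and Nfkb1 by 1.23 (adjusted p = 0.00554), while Ifngr1 fell by 1.08 (adjusted p = 0.0246) and Ifngr2 by 1.01 (adjusted p = 0.0162). Here the length trend ran the other way, from −0.22 at up to 1000 bases to 0.52 above 4000, and Tapbp was at −1.38 against its 500 neighbours in length. Of 8 mesenchymal markers 3 fell, with log2 changes of −0.82 for Dcn, −0.88 for Vim and −1.94 for Thy1, and their sum was 17770 and 18127 CPM against 24740 to 32523 in wild type. Endothelial markers summed to 81.1 and 123 CPM against 164 to 234, and immune markers to 16.5 and 24.9 against 7.09 to 81.8, with none called. The part of these shifts was not tested.

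With Gli3 alone deleted, 1 member rose and 1 fell, where 2.09% of all genes rose and 2.36% fell. The median of the members was −0.13 against −0.22 over all genes. Without Gli3FF replicate 1 it was −0.44, with 158 genes higher and 161 lower, and without replicate 2 it was 0.12 against −0.76 over all genes, with 312 and 301. Without the ribosomal locus in the scaling, 361 genes were higher and 756 lower in place of 509 and 576. With RLE factors 570 were higher and 538 lower. H2-D1 was at 1496 and 1295 CPM, far above the 642 to 685 CPM of wild type. It rose by 1.01 (SE 0.287, adjusted p = 0.0437), was called in 5 of 10 alternatives (adjusted p 0.00101 to 0.246) and lost whichever of the 7 libraries was left out (0.0761 to 0.309). Tap1 was at 1.52 and 6.14 CPM, from 34 and 167 counts, against 20.2, 14.4, 15.9, 13.6 and 14.9 CPM in wild type. Both libraries were low, and Tap1 fell by 2.07 (SE 0.539, adjusted p = 0.0273), called in 7 of 10 alternatives (0.000718 to 0.134). Without Gli3FF replicate 1 the change of Tap1 was −1.37 (adjusted p = 0.423), without replicate 2 it was −3.49 (adjusted p = 0.00932), and without wild type replicate 1 the call was lost (0.0556). With 1 Gli3FF library left, it is assumed to vary like the other groups.

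The remaining members were not called in Gli3FF. Tapbp, at 252 and 214 CPM, lay below all wild type libraries with a change of −0.50 (SE 0.208, adjusted p = 0.196). H2-K1 at 548 and 380.0 CPM, B2m at 1853 and 1142, Tap2 at 21.5 and 32.2, Psmb8 at 63.2 and 41.2, Psmb9 at 25.9 and 13.6 and Psme1 at 109 and 79.3 overlapped with wild type. Nlrc5 had 0 counts in both libraries. With 3 counts over the group as the limit (0.0605 CPM), counting error alone would put it at least 34.8-fold below the wild type mean of 2.10 CPM. That limit leaves out variation between libraries, and Nlrc5 was also at 0 in some libraries of Ctnnb1FF, uninjured Gli1 cells and BDL. The test did not call Nlrc5 (adjusted p = 0.0627), and its adjusted p over the alternatives was 0.000885 to 0.13, with a call in 4 of 10. Of the other lists, heavy chains had 1 higher (H2-Q1 by 1.87, adjusted p = 0.0346) and 1 lower (H2-T22), regulators had 1 higher (Jak2 by 1.45, adjusted p = 0.00447), and no loading gene, partner or constitutive subunit was called. Immune markers summed to 16.2 to 34.9 CPM with Ptprc, Cd3e, Adgre1, Itgam and Laptm5 at 0. In addition 4 of 8 mesothelial, 2 of 8 endothelial (Tek and Kdr) and 2 of 8 cholangiocyte markers (Krt19 and Krt7) fell. Krt19 is on both the mesothelial and the cholangiocyte list. Summed endothelial markers were not lower, at 209 and 244 CPM against 164 to 234 in wild type. Pecam1, Cdh5, Kdr and Emcn were at 0 in Gli3FF. Cdh5 and Emcn were also at 0 in wild type, where Kdr was at 1.21 CPM. Of 8 mesenchymal markers 3 rose (Col1a1, Col1a2 and Thy1), and of 8 smooth muscle and pericyte markers 1 rose (Des). Their part was not tested.

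With Smo deleted or activated, 0 of 10 members were called by edgeR. In SmoFF 0.287% of all genes rose and 1.26% fell, and in SmoM2 0.127% rose and 0.0779% fell. In each, 1 member was past an unadjusted p of 0.05. In SmoFF this was B2m, at 996, 1105, 787 and 533 CPM, all below the 1121 CPM of the lowest wild type library. Its change was −0.84 (SE 0.232, adjusted p = 0.0667), called in 5 of 10 alternatives (adjusted p 0.00113 to 1.0), by DESeq2 as the 1 member called and by limma voom not. It was also called without wild type replicate 5, the library whose description names SmoFF. Against wild type 1 to 3 alone the change of B2m was −1.04, and against wild type 4 and 5 it was −0.52. Those wild type libraries differed in B2m, at 1523 to 1957 and 1121 to 1272 CPM, and the labels name no batch. H2-K1 in SmoFF was at 373, 401, 352 and 322 CPM, overlapping with wild type, and the 95% interval of its log2 change ran from −0.62 to 0.17.

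In SmoM2 the member was Tapbp, at 223, 229 and 273 CPM, with a change of −0.42 (SE 0.179, adjusted p = 0.578). DESeq2 called 0 members and limma voom called Tapbp lower (−0.50, adjusted p = 0.0153). SmoM2 replicate 1 had the lowest H2-D1, H2-K1 and B2m of its group, at 335, 219.9 and 693 CPM, against 932 to 959, 471 to 559 and 1533 in the others. Set directly against SmoFF, where 1.74% of all genes rose and 0.89% fell, SmoM2 had 0 members called by edgeR, DESeq2 or limma voom and 0 past an unadjusted p of 0.05. The change of B2m between them was 0.52 (SE 0.258, adjusted p = 0.343). Of all 5 other lists of the route, the 1 gene called in these 3 comparisons was the proteasome activator Psme3, lower in SmoM2 than in SmoFF by 1.40 on the log2 scale (adjusted p = 0.00504).

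Outside the members, the heavy chain H2-T22 was called lower and the kinase Jak2 higher in each of the 3 Gli genotypes, which share their wild type controls. H2-T22 was called lower in Ctnnb1FF and after BDL as well, by the smaller values given above. H2-T22 was at 54.2, 59.4, 54.8, 63.8 and 39.6 CPM in wild type, 15.5 and 7.80 in Gli2FF, 9.55 and 10.3 in Gli3FF and 11.8, 7.75, 3.43 and 6.22 in Gli2FFGli3FF. It fell by 2.19 in Gli2FF (adjusted p = 0.00142), by 2.51 in Gli3FF (adjusted p = 0.000381) and by 2.97 in Gli2FFGli3FF (adjusted p = 6.16e-07). In SmoFF H2-T22 was at 28.8, 22.3, 30.7 and 24.7 CPM, also below wild type, with a change of −1.03 (adjusted p = 0.0577) that was not called. Jak2 was at 14.4, 15.2, 22.9, 17.9 and 19.4 CPM in wild type, 58.3 and 55.8 in Gli2FF, 54.1 and 48.7 in Gli3FF and 107, 107, 57.5 and 88.6 in Gli2FFGli3FF, with no overlap.

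Among the 86 other genes between Tapbp and H2-D1, 71 were tested in the Pdgfra fit, of which 3 rose and 17 fell in Ctnnb1FF, 3 and 14 in Gli2FFGli3FF, 2 and 4 in Gli2FF, 1 and 3 in Gli3FF, and 0 and 0 in the comparisons of Smo. Across the 23 Pdgfra libraries the members did not vary as 1 group. The correlation of a member's log2 CPM with the mean of the other members was highest for H2-K1 (Pearson's r = 0.43), Psmb8 (0.37) and Tap1 (0.31) and lay between −0.27 and 0.18 for the other 7. Of 8072 genes ranked, those with a pattern most like the mean of the members were Tubb2a (r = 0.72), Sfrp2 (0.69), Pdlim1 (0.67), Clic4 (0.67), Rala (0.66) and Mesd (0.65). In the 6 Gli1 libraries the same 6 genes had r from −0.54 to 0.95. These values describe 23 libraries that share genotypes and depth.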

How the data were processed

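Per the labels' protocols, cells were sorted from the bile duct of each animal and amplified with a Smart-seq3 protocol using Smart-seq2 oligonucleotides. The tables the authors deposited hold a raw count for each gene and library, in whole numbers without normalization, on mm10 per the submitters' processing notes. The sources used here do not give the aligner, the counter, the annotation or the strand setting. No per-sample column was left unused (0 columns), and no pair of libraries was identical.

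Genes were filtered with filterByExpr (minimum count 10), scaled by TMM and tested with edgeR 4.0.16 (glmQLFit, glmQLFTest, Benjamini-Hochberg adjustment) in R 4.3.3. The 6 Gli1 libraries were fitted alone and the 23 Pdgfra libraries together. Alternatives used DESeq2 1.42.0, limma 3.58.1 (voom with quality weights), RLE factors, totals without the ribosomal RNA locus, no filter, a replicate block, subsets of controls and libraries, and, added later, a lowess correction for transcript length and GC content. All members were named. Genes of the other lists were named where called, at most 4 per list and comparison by smallest p, or as Psmb5, Psmb6, Psmb7, Psmb10 and Psme2. Irf1 in BDL and H2-T22 in SmoFF were named after their values were seen. The members and the lists were chosen with earlier results of these data known. Tested on simulated data, the BDL design recovered 0% of 2-fold and 13% of 4-fold changes over 15890 genes and the Ctnnb1FF design 11% and 51% over 22700. Far fewer genes were changed in that simulation than were called in these data, and the adjustment is stricter when few genes change. The shares therefore do not measure how many changes of that size were missed here. Ratios and limits from counts cover counting error only, since reads are not independent molecules.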

Additional observations from a re-analysis of the deposited data

Results flagged for a closer look

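In Gli2FFGli3FF, Nlrc5 was at 1.78 CPM in replicate 4 and at 0.222, 0.209 and 0.269 CPM in replicates 1 to 3, so that replicate 4 stood far from the others relative to the spread of the group. The counts behind these values were 29 against 3, 5 and 4. It was the 1 such library among 30 pairs of a member and a group of 4 or 5 libraries, and chance alone marks about 1 in 20.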

How the results depend on the processing

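The 17 called changes of members kept their direction in every alternative run. All 17 were called with RLE factors, by DESeq2 and without the count filter, 15 with totals without the ribosomal RNA locus, 15 by limma voom and 14 with length and GC correction. Of the 10 calls that the subsets could test, 9 held with only the groups compared, 8 with wild type 1 to 3 and 6 with wild type 4 and 5 as controls. The number of members called in Gli3FF, 2 as reported, was 1 without the ribosomal locus, 1 by limma voom, 1 with wild type 1 to 3 and 0 with wild type 4 and 5, and 0 to 1 with a library left out. It was larger by DESeq2, without the filter and with only the 2 groups compared, with 1 member higher and 2 lower in each. In SmoFF, with 0 as reported, 1 was called by DESeq2, without the filter, with wild type 1 to 3 and with length and GC correction, and 0 to 1 with a library left out. In Gli2FFGli3FF, with 3 as reported, 5 were called by DESeq2, with only the 2 groups and with length and GC correction, and 2 to 4 with a library left out. In SmoM2 limma voom called 1. Leaving out a library gave 6 to 7 in BDL, 3 to 5 in Ctnnb1FF, 1 in Gli2FF and 0 in SmoM2. Counts over all genes moved more. Those lower in Ctnnb1FF, 2891 as reported, were 1836 without Ctnnb1FF replicate 1 and 1349 without replicate 2, and those in Gli2FFGli3FF, 2330 as reported, were 1301, 1325 and 1426 without its replicate 1, 2 or 3. The cause of these differences was not tested.

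Same-numbered replicates did not deviate together, with correlations of −0.04 to −0.02 in the 3 Gli1 pairs and −0.28 to 0.17 in 55 Pdgfra pairs, 4 of them over 0.1. With the replicate number as a block all the same, 14 of 17 calls were kept, with 0 in Gli3FF, where H2-D1 had an adjusted p of 0.121 and Tap1 of 0.0945, and 1 in SmoFF. Psme1 in Gli2FFGli3FF had an adjusted p of 0.0524 in that paired fit. Depth limits Nlrc5, with 0 to 29 counts in many libraries, more than the other members.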
